A study of Homo sapiens with 12 samples.

Results

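Heparan sulfate is a sulfated sugar chain that cells build on core proteins at their surface and in the matrix. The genes described here are 10 genes that build, sulfate, trim or carry it: the chain polymerases EXT1 and EXT2, the N-deacetylase/N-sulfotransferases NDST1 and NDST2, the 2-O-sulfotransferase HS2ST1, the 6-O-sulfotransferases HS6ST1 and HS6ST2, the 6-O-endosulfatases SULF1 and SULF2, and the core protein GPC3. They were chosen by symbol, because SULF2 and HS6ST1 had risen strongly in HepG2 cells, from 20293 genes listed for either line. All 10 were listed for Huh7 and 8 for HepG2, and SULF1 and HS6ST2 were not analysed in HepG2. The low-count filter kept 8 of them in HepG2 and 9 in Huh7.

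Poly(A) RNA was sequenced from HepG2 and Huh7, established human lines labelled as hepatocellular carcinoma. Each line had 3 Ctrl-siRNA libraries and 3 UBL5 siRNA libraries. UBL5 is a ubiquitin-like protein that works in pre-mRNA splicing, and the comparison asks which transcripts change when it is depleted. The controls received a non-target siRNA by the same lipid reagent and carry the genotype label WT, the others the label UBL5 knockdown, and the labels give 52 h for every library, although the study's text names a shorter time between transfection and RNA isolation. Nothing in the labels tells whether replicates were separate transfections, so a p-value here covers library-to-library spread that may be technical, and a bulk library cannot tell fewer expressing cells from less RNA per cell.

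Total counts lay between 19469574 and 29744471 per library. UBL5 itself was at 55.5 to 60.4 CPM (counts per megaread of the scaled library) in the HepG2 controls and 2.80 to 6.88 CPM with UBL5 siRNA, and at 67.1 to 70.8 and 5.80 to 6.67 CPM in Huh7. The hepatocyte-lineage markers were all listed in both lines (8 of 8), with summed levels of 50485 to 55363 CPM in the HepG2 controls and 49498 to 59220 CPM with UBL5 siRNA, and of 28026 to 29313 and 29576 to 29943 CPM in Huh7. The summed endothelial markers were at most 6.78 CPM in any library (3 of 6 listed in HepG2, 1 of 6 in Huh7). In HepG2 the mean of CDH5 went from 0.0674 CPM in the controls to 2.30 CPM with UBL5 siRNA. PECAM1 (5.29 to 2.63 CPM) and CLDN5 (0.252 to 0 CPM) went the other way. The fibroblast and stellate markers (7 of 7 listed in HepG2, 6 of 7 in Huh7) summed to 38.3 to 44.7 CPM in the HepG2 controls and 47.7 to 62.2 CPM with UBL5 siRNA, and to 31.6 to 35.3 and 18.02 to 30.9 CPM in Huh7. In Huh7 LUM made up most of that sum, with a mean of 27.7 CPM in the controls and 9.51 CPM with UBL5 siRNA, while the means of the other 5 listed were higher with UBL5 siRNA (COL1A1 2.67 and 6.05, COL1A2 0.580 and 1.79, COL3A1 0.221 and 1.504, PDGFRB 2.06 and 3.59, DCN 0.181 and 0.485 CPM). In HepG2 ACTA2 made up most of the sum (31.9 and 38.6 CPM), and of the other 6 PDGFRB alone had the lower mean with UBL5 siRNA (8.32 and 6.30 CPM). The part of these markers in the results below was not tested. Of the leukocyte markers, 4 of 7 were listed in HepG2 and 2 of 7 in Huh7, and their sum came mostly from LYZ, with mean levels of 1889 CPM in the HepG2 controls and 1121 CPM with UBL5 siRNA, and 567 and 340 CPM in Huh7. CD14 went the other way, from a mean of 0.230 to 6.29 CPM in HepG2 and from 1.66 to 4.72 CPM in Huh7, and PTPRC, CD3E and CD68 were not analysed in either line. The third HepG2 control library held 1773 listed genes at a count of 0, against 159 to 233 in the other HepG2 libraries, and the HepG2 log2 fold changes of the 8 genes are given without it as well. Of the list genes named below and called in HepG2, SUMF2 was not followed in the fit without that library. Every other one was also called there, with the largest move for PXYLP1, from 2.18 to 1.71 on the log2 scale.

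Heparan sulfate is polymerised by an EXT1 and EXT2 complex as alternating glucuronic acid and N-acetylglucosamine. NDST enzymes replace acetyl groups with sulfate, HS2ST1 sulfates the uronic acid, HS6ST enzymes add 6-O-sulfate to glucosamine, and SULF1 and SULF2 remove 6-O-sulfate again outside the cell, so that HS6ST and SULF genes act on the same position of the chain in opposite directions. The sulfation pattern governs binding of FGF, Wnt and other ligands, and GPC3, a glypican anchored to the membrane by a GPI lipid, is an oncofetal protein widely used as a marker of hepatocellular carcinoma.

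The stretches directly upstream of the RefSeq starts of HS6ST1 and SULF2 are shown because, beside the sparsely counted NDST2, these genes had the largest folds in both lines. They lie at chr2:128318879-128319118 and chr20:47785492-47785731, both on the minus strand of GRCh38.p14, each is 240 bases long and ends 10 bases short of the start, and capitals mark the GC box (GGGCGG, searched on both strands). RefSeq gave 1 promoter window for HS6ST1 and 4 for SULF2, of which the one at the GENCODE canonical start was used. The SULF2 stretch lies inside the annotated span of the gene, so it is not upstream of every annotated SULF2 start.

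HS6ST1: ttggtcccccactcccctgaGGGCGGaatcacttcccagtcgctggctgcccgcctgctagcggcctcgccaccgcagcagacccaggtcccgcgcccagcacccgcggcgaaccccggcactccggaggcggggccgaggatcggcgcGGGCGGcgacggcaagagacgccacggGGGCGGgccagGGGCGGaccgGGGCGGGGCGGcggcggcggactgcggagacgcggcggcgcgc

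SULF2: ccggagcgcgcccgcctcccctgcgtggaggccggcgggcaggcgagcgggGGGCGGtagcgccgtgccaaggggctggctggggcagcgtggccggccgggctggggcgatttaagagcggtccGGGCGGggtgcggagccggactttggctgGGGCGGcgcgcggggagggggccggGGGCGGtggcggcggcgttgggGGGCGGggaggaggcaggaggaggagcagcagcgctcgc

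These stretches held 6 matches (HS6ST1) and 5 matches (SULF2). In the windows from 250 bases before to 50 bases after the start, matched in RefSeq for 7 of the 10 genes (not EXT1, SULF1 or GPC3), HS6ST1 held 7 matches, SULF2 5, HS2ST1 4, NDST1 and NDST2 1 each, and EXT2 and HS6ST2 0, and some matches in the HS6ST1 window overlap. Of all 34796 windows, 44.9% held at least 1 GC box. The HS6ST1 and SULF2 windows were 79.7% and 82.3% G or C, against a median of 58.7% over all windows. Neither window held the CCAAT box (CCAAT, in 34.6% of windows), the TATA box (TATAAA, 11.6%), the E-box (CACGTG, 7.20%), the cyclic AMP response element (TGACGTCA, 1.84%) or the ATF4-CHOP composite element (TGATGNAA, 3.63%). The NDST1 and HS6ST2 windows start 10352 and 2741 bases away from the start of the GENCODE canonical transcript.

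The 6-O-endosulfatase SULF2 (ENSG00000196562, chromosome 20, 47656197 to 47786616, minus strand) had the largest Huh7 fold of the 9 genes tested there. In Huh7 the control libraries were at 14.1, 12.7 and 12.1 CPM and the UBL5 siRNA libraries at 66.2, 64.2 and 59.97 CPM. Every UBL5 siRNA library lay far above every control library, a rise of 2.28 on the log2 scale (SE 0.0755) or 4.87-fold, with an adjusted p of 9.90e-10 by the quasi-likelihood test of edgeR. In HepG2, whose siRNA comparison chose the genes and is therefore described without a test, the controls were at 88.6, 97.4 and 88.4 CPM and the UBL5 siRNA libraries at 295.9, 297.5 and 276 CPM. The HepG2 log2 fold change was 1.66 (SE 0.0824) and 1.64 without the third control library. Exons of NCOA3 and of a long noncoding RNA on the other strand cover 6.58% of the SULF2 exon bases, and the strand setting of the counting is not given in the sources used here.

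SULF1, the other endosulfatase, was hardly detected. Its Huh7 counts were 5, 9 and 1 in the controls and 3, 4 and 14 with UBL5 siRNA, below the filter, so that it was not tested, and the groups overlapped. SULF2 was thus the only endosulfatase gene that could be tested in Huh7 at this depth.

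HS6ST1 (ENSG00000136720, chromosome 2, 128236716 to 128318868, minus strand) rose beside the endosulfatase that removes its product. In Huh7 the controls were at 17.2, 17.0 and 19.0 CPM and the UBL5 siRNA libraries at 38.2, 36.9 and 39.7 CPM. The groups were well apart, with a log2 fold change of 1.11 (SE 0.0701), 2.16-fold, and an adjusted p of 7.26e-08 by edgeR. In HepG2 the levels were 26.6, 25.8 and 26.7 CPM in the controls and 96.3, 100.6 and 83.6 CPM with UBL5 siRNA, with the third UBL5 siRNA library lowest but still far above the controls. The HepG2 log2 fold change was 1.83 (SE 0.103), and 1.83 again without the third control library. The pseudogene HS6ST1P1, which resembles HS6ST1, held at most 33 counts in any library, against at least 378 for HS6ST1.

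HS6ST2 (ENSG00000171004, chromosome X, 132626015 to 132961395, minus strand), the other 6-O-sulfotransferase measured, was at 45.8, 48.0 and 45.8 CPM in the Huh7 controls and 52.4, 53.7 and 50.04 CPM with UBL5 siRNA. The groups did not overlap, but the log2 fold change was 0.16 (SE 0.056, adjusted p = 0.0225 by edgeR), with a 95% interval from 0.04 to 0.28, against 0.96 to 1.27 for HS6ST1 in the same libraries. The call rested on the full set of libraries, with an adjusted p of 0.0559 without the first control library, 0.0601 without the third and 0.0775 without the second UBL5 siRNA library.

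The balance of the 6-O-sulfation genes was then set within each Huh7 library. Per kilobase of exon, HS6ST1 made up 28.2% ± 1.59 (SD, n = 3) of the HS6ST1 and HS6ST2 reads in the controls and 43.1% ± 1.78 (SD, n = 3) with UBL5 siRNA, and the groups did not overlap. The ratio of SULF2 to the sum of both sulfotransferases went from 0.147 ± 0.014 (SD, n = 3) to 0.509 ± 0.0233 (SD, n = 3). Each difference had an exact permutation p of 0.1 (two-sided), the smallest that 3 libraries against 3 allow.

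**Figure D1:**
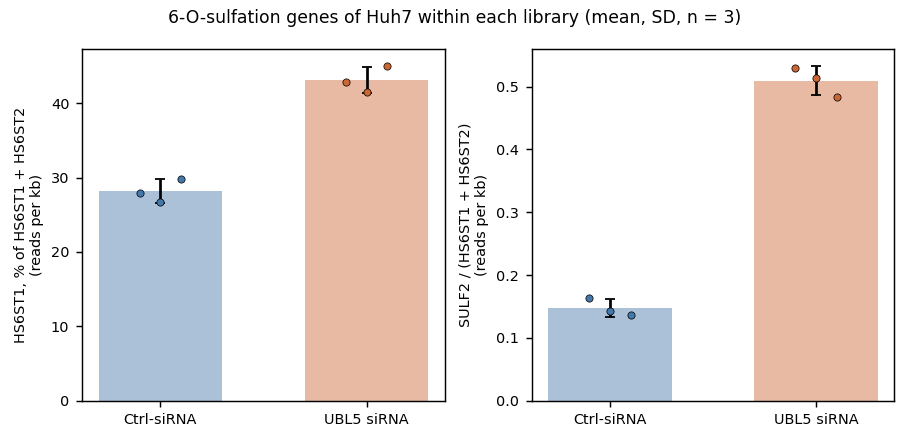
HS6ST1 as a percentage of HS6ST1 plus HS6ST2 reads per kilobase (left) and SULF2 over their sum (right) in the Huh7 libraries, with points for libraries, bars for means and whiskers for SD (n = 3). The mean percentage is 28.2 in the controls and 43.1 with UBL5 siRNA, and the mean ratio 0.147 and 0.509.

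The 2-O-sulfotransferase HS2ST1 (ENSG00000153936, chromosome 1, 86914635 to 87109982, plus strand) had a small Huh7 difference. The Huh7 controls were at 143.8, 130.1 and 125.3 CPM and the UBL5 siRNA libraries at 147.6, 142.9 and 149.8 CPM. The highest control library lay above the lowest UBL5 siRNA library, and the log2 fold change was 0.14 (SE 0.0557, adjusted p = 0.0402 by edgeR). The adjusted p was 0.0636, 0.0785, 0.141 and 0.165 without UBL5 siRNA replicate 1, UBL5 siRNA replicate 3, Ctrl-siRNA replicate 2 and Ctrl-siRNA replicate 3 respectively, and 0.325 in a fit of all 12 libraries. In HepG2 the controls spread from 136.5 to 178.9 CPM and the UBL5 siRNA libraries from 220.7 to 252.2 CPM without overlap, a log2 fold change of 0.62 (SE 0.112), and 0.72 without the third control library. HS2ST1 shares 8.50% of its exon bases with ENSG00000267561, a gene on the same strand.

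The chain polymerases were both higher with UBL5 siRNA. EXT1 (ENSG00000182197, chromosome 8, 117794490 to 118111826, minus strand) was at 84.8, 94.3 and 93.5 CPM in the Huh7 controls and 120.2, 120.4 and 119.5 CPM with UBL5 siRNA. Its groups were apart and it rose by 0.40 on the log2 scale (SE 0.0514, adjusted p = 2.51e-05 by edgeR). EXT2 (ENSG00000151348, chromosome 11, 44095648 to 44251962, plus strand) was at 87.4, 88.1 and 84.1 CPM in the Huh7 controls and 106.7, 105.4 and 100.03 CPM with UBL5 siRNA. Its Huh7 groups did not overlap either, with a log2 fold change of 0.27 (SE 0.0479, adjusted p = 0.000382 by edgeR). In HepG2 the order of the sizes was the other way round, with EXT1 going from 52.5, 59.0 and 59.3 CPM to 72.1, 63.5 and 67.4 CPM (log2 fold change 0.25, SE 0.0973, and 0.28 without the third control library) and EXT2 from 106.7, 112.9 and 108.8 CPM to 152.4, 153.1 and 157.9 CPM (0.50, SE 0.0755, and 0.49 without that library).

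NDST1 (ENSG00000070614, chromosome 5, 150485818 to 150558211, plus strand), which starts the sulfation of the chain, did not pass the test. The Huh7 controls were at 186.4, 200.1 and 196.0 CPM and the UBL5 siRNA libraries at 192.0, 184.5 and 183.1 CPM. The groups overlapped, with a log2 fold change of -0.06 (SE 0.0458, adjusted p = 0.281 by edgeR) and a 95% interval from -0.16 to 0.04. In HepG2 the controls were at 93.2, 99.7 and 104.5 CPM and the UBL5 siRNA libraries at 89.7, 98.6 and 78.9 CPM, the only overlapping groups among the genes measured in that line, with a log2 fold change of -0.15 (SE 0.104), and -0.12 without the third control library.

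NDST2 (ENSG00000166507, chromosome 10, 73801911 to 73811798, minus strand) was counted at very low levels and its values are uncertain. Of its GENCODE exon bases, 82.9% are shared on the same strand with the protein-coding gene ENSG00000272916. The annotation used in the counting is not given in the sources used here. Whether reads were left out of the NDST2 counts because of this overlap was not tested. The Huh7 counts were 12, 8 and 6 in the controls and 24, 22 and 24 with UBL5 siRNA, a log2 fold change of 1.61 (SE 0.276). In HepG2 the control counts were 2, 6 and 0 and the UBL5 siRNA counts 13, 16 and 11. The HepG2 log2 fold change of 2.47 (SE 0.987) was 1.88 without the third control library and 3.87 without the second, and in both lines the gene passed the filter only through its UBL5 siRNA libraries, which favours a higher value there, so no p is given.

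GPC3 (ENSG00000147257, chromosome X, 133535745 to 133987100, minus strand) was by far the most abundant of the 10 genes and did not pass the test in Huh7. The Huh7 controls were at 1096, 1180 and 1176 CPM and the UBL5 siRNA libraries at 1133, 1071 and 1114 CPM. These groups overlapped, with a log2 fold change of -0.06 (SE 0.0471, adjusted p = 0.298 by edgeR) and a 95% interval from -0.16 to 0.05. In HepG2 the controls were close together at 2614, 2647 and 2628 CPM and the UBL5 siRNA libraries were at 3045, 2722 and 2958 CPM, all above the controls, with a log2 fold change of 0.15 (SE 0.0644), and 0.14 without the third control library.

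**Figure D2:**
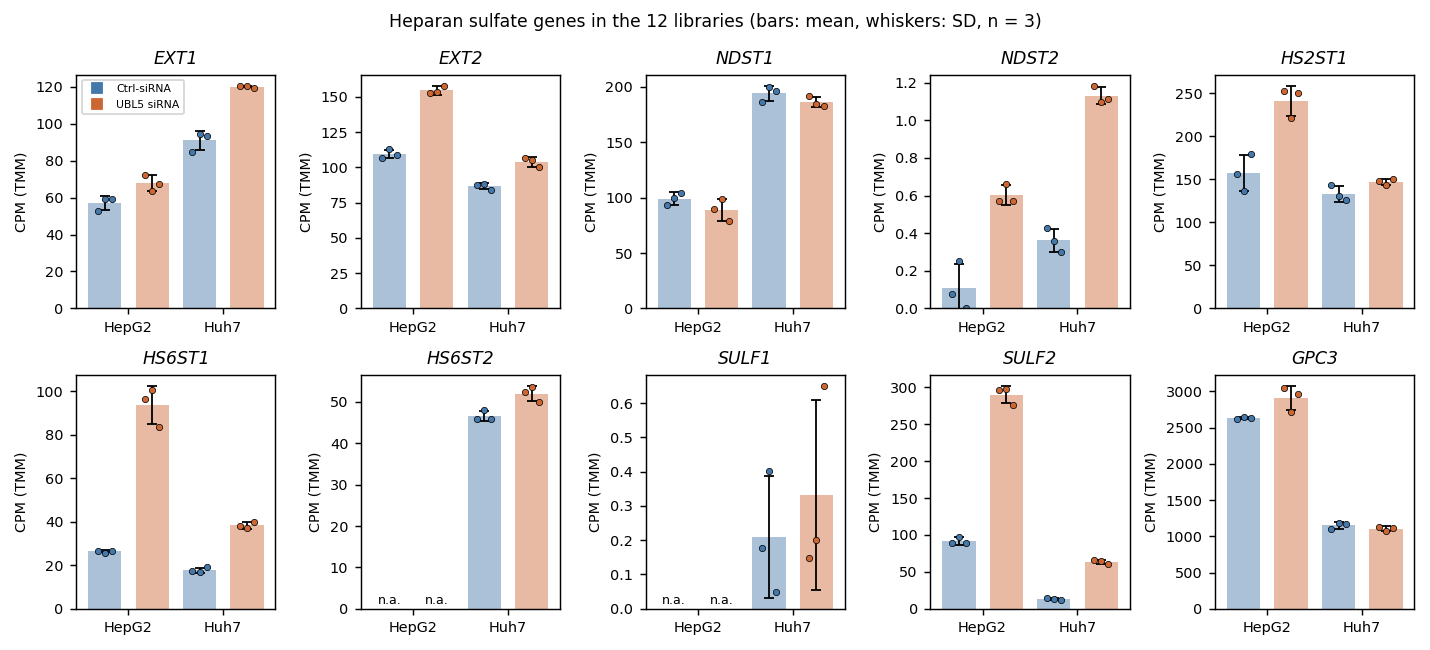
CPM of each of the 10 genes on linear axes, with blue for Ctrl-siRNA, orange for UBL5 siRNA, points for libraries, bars for means and whiskers for SD (n = 3); n.a. marks genes not analysed in HepG2. The SULF2 and HS6ST1 groups are far apart in both lines, while the Huh7 groups of NDST1 and GPC3 overlap.

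Leaving out NDST2, 6 of the 8 genes tested in Huh7 passed the test, all 6 higher with UBL5 siRNA and 0 lower. In Huh7 71.3% of all 16965 genes tested passed, 34.9% higher and 36.4% lower, so that the share of these genes that passed is near that of all genes. The median log2 fold change over the 8 was 0.21, against -0.01 over all genes tested in Huh7. The Huh7 groups of 5 of the 8 did not overlap, with UBL5 siRNA above in all 5, beside 73.9% of all Huh7 genes tested (35.9% with UBL5 siRNA above). In HepG2, again without NDST2, the groups of 6 of 7 genes did not overlap, with UBL5 siRNA above. The share over all 15755 HepG2 genes tested was 53.0%, 26.1% with UBL5 siRNA above, and nothing is read from the count, since the genes were chosen on these libraries. The replicate spread was smaller in Huh7, with a common biological coefficient of variation of 0.0663 against 0.189 in HepG2.

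**Figure D3:**
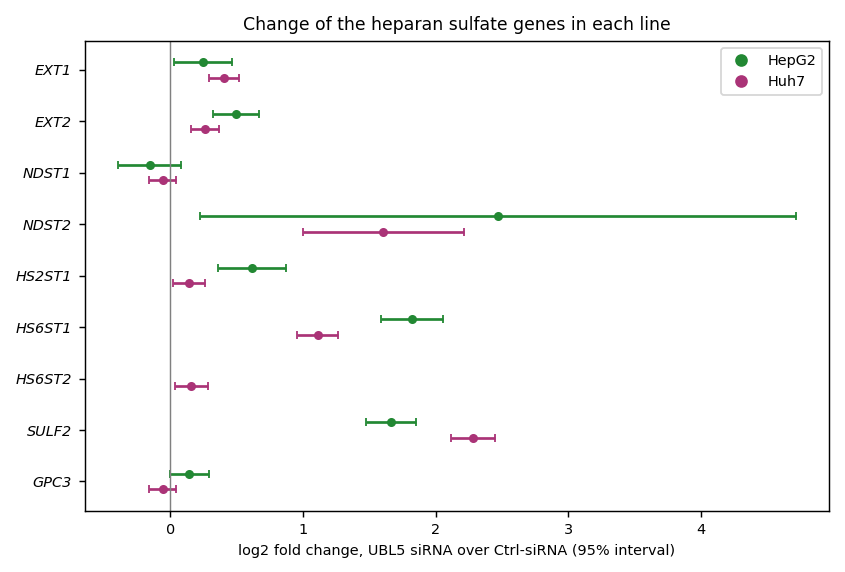
Log2 fold change of UBL5 siRNA over Ctrl-siRNA in HepG2 (green) and Huh7 (purple), with 95% intervals from the edgeR fits; HS6ST2 has a Huh7 value only and SULF1 is not plotted. SULF2 (1.66 and 2.28) and HS6ST1 (1.83 and 1.11) lie to the right in both lines, and NDST2 has the widest intervals.

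Set per exon length and scaled within each line (RPKM), GPC3 led the controls of both lines, with a mean of 802 RPKM in HepG2 and 351 RPKM in Huh7. In the HepG2 controls HS2ST1 followed at 18.6 RPKM, then SULF2 at 13.1 and NDST1 at 10.4 RPKM, while EXT1 and HS6ST1 at 5.31 RPKM and EXT2 at 5.30 RPKM did not differ beyond their spread. The length used is that of all annotated exons together, 20632 bases for EXT2, 10736 for EXT1 and 4974 for HS6ST1. Before division by length, the means of these 3 in the HepG2 controls were 109, 57.0 and 26.4 CPM. The order between genes thus depends on the length used. In the Huh7 controls the order was NDST1 at 20.4, HS2ST1 at 15.7, HS6ST2 at 9.09, EXT1 at 8.46, EXT2 at 4.19, HS6ST1 at 3.56 and SULF2 at 1.86 RPKM, with HS6ST2 above EXT1 in every control library. NDST2 and SULF1 came last at 0.0776 and 0.0224 RPKM. With UBL5 siRNA, SULF2 stood at 41.5 RPKM in HepG2, next after GPC3, and at 9.09 RPKM in Huh7, while HS6ST1 stood at 18.8 and 7.69 RPKM.

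**Figure D4:**
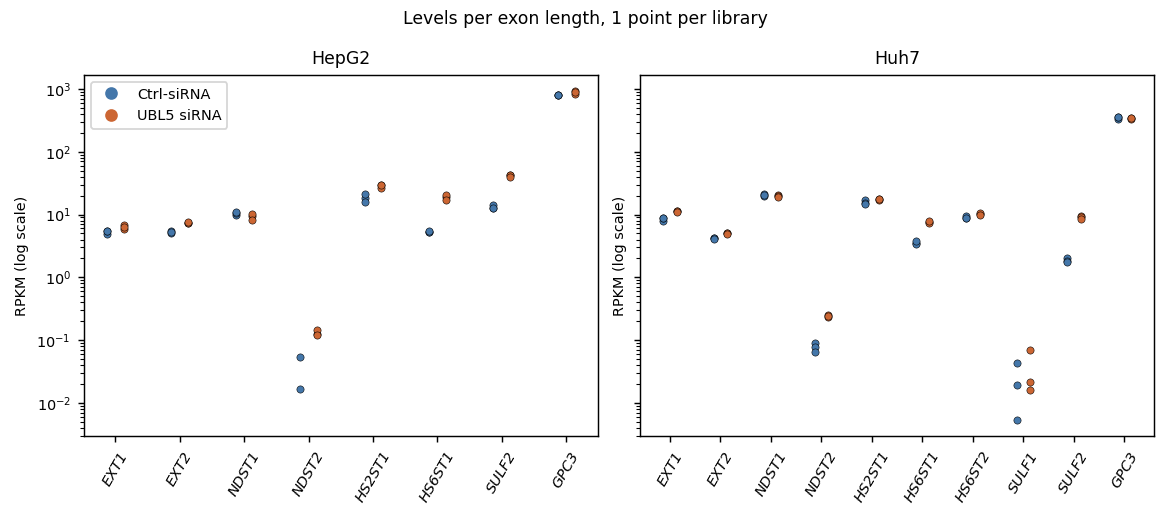
RPKM (CPM per kilobase of exon, log axis) of each gene in HepG2 (left) and Huh7 (right), 1 point per library, blue for Ctrl-siRNA and orange for UBL5 siRNA; a library at a count of 0 has no point. GPC3 lies at the top in both lines, and NDST2 and SULF1 lie below 1 RPKM.

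The 2 lines differed in their control levels of these genes. For the 6 genes other than SULF2 and HS6ST1 that were listed for both lines, the control libraries were compared in a fit of all 12 libraries. In that fit 63.7% of 15668 genes passed the test, and of the 6 genes all 5 other than NDST2 passed. GPC3 was lower in Huh7 than in HepG2, with a log2 difference of -1.29 (SE 0.059, adjusted p = 3.12e-10 by edgeR). EXT2 and HS2ST1 were lower in Huh7 as well, by -0.43 (SE 0.0587, adjusted p = 1.82e-05) and -0.33 (SE 0.0968, adjusted p = 0.008). NDST1 and EXT1 were higher in Huh7, by 0.88 (SE 0.077, adjusted p = 2.28e-07) and 0.58 (SE 0.0749, adjusted p = 1.11e-05). NDST2 had a log2 difference of 1.69 (SE 0.714), at the low counts given above. It passed the filter of that fit only through UBL5 siRNA libraries and dropped out of a fit of the control libraries alone, so no p is given. SULF2, for which no test is given, had 7.49-fold more CPM in the HepG2 controls than in the Huh7 controls, and HS6ST1 1.59-fold more. Line and counting table cannot be told apart in these differences, since each line came from its own tables.

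The siRNA changes of the lines are set side by side as a description only, since the HepG2 values of SULF2 and HS6ST1 chose the genes. In the fit of all 12 libraries the HepG2 log2 fold change minus the Huh7 one was -0.59 (SE 0.105) for SULF2 and 0.74 (SE 0.116) for HS6ST1. For HS2ST1 the difference was 0.50 (SE 0.137), for EXT2 0.26 (SE 0.0828) and for GPC3 0.23 (SE 0.0822). It was -0.13 (SE 0.106) for EXT1, -0.07 (SE 0.108) for NDST1 and 0.90 (SE 0.888) for NDST2.

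The other genes of the pathway were taken from 7 lists by role with 96 genes. In HepG2 72 of them were tested and 24 passed as higher and 11 as lower with UBL5 siRNA, where 36.7% of all genes passed, 16.5% higher and 20.1% lower. In Huh7 82 were tested and 34 passed as higher and 27 as lower, where 71.3% of all genes passed, 34.9% higher and 36.4% lower. The counts per list below are to be read beside these shares of each line. The median log2 fold change over the lists was 0.29 in HepG2 and 0.15 in Huh7, against 0.01 and -0.01 over all genes tested.

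Of the other heparan sulfate chain enzymes, 2 of 6 tested were higher and 1 lower in HepG2, and 3 of 8 higher and 1 lower in Huh7. EXTL3, which starts the heparan sulfate chain on the linker, rose by 0.57 (SE 0.0969, adjusted p = 0.00232 by edgeR) on the log2 scale in HepG2 and by 0.80 (SE 0.067, adjusted p = 7.20e-07) in Huh7. EXTL2, a relative of EXTL3 that limits chain growth, fell by 0.44 (adjusted p = 0.0103) and 0.42 (adjusted p = 0.000682) on the log2 scale. HS3ST3B1, a 3-O-sulfotransferase, rose in HepG2 (0.39, adjusted p = 0.0138), with 0.29 and an adjusted p of 0.073 in Huh7. Heparanase, HPSE, which cuts the chain, went from a mean of 0.962 to 1.82 CPM in Huh7 (log2 fold change 0.88, adjusted p = 0.0157).

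The enzymes of the linker tetrasaccharide, which joins the chain to the core protein, moved in both directions. Of 6 tested, 1 was higher and 2 lower in HepG2, and 3 higher and 2 lower in Huh7. B3GAT3, which adds the last sugar of the linker, fell from a mean of 15.8 to 5.96 CPM in HepG2 and from 27.5 to 5.995 CPM in Huh7, log2 fold changes of -1.40 (SE 0.186, adjusted p = 0.000719 by edgeR) and -2.20 (SE 0.108, adjusted p = 1.12e-08). PXYLP1, a phosphatase that removes the phosphate from the linker xylose, rose from 2.97 to 13.4 CPM in HepG2 and from 3.92 to 22.4 CPM in Huh7, log2 fold changes of 2.18 (SE 0.492, adjusted p = 0.00859) and 2.49 (SE 0.132, adjusted p = 1.97e-08). FAM20B, the kinase that adds that phosphate, fell in HepG2 (-0.39, adjusted p = 0.00761) and rose in Huh7 (0.17, adjusted p = 0.0224). B4GALT7, which adds the first galactose, had -0.24 in HepG2 (adjusted p = 0.349) and fell in Huh7 (-0.36, adjusted p = 0.000645).

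Of the other heparan sulfate core proteins, 3 of 9 tested were higher and 1 lower in HepG2, and 4 of 11 higher and 5 lower in Huh7. SDC1, the syndecan of epithelial cells, rose from a mean of 304 to 490 CPM in HepG2 (0.69, SE 0.0981, adjusted p = 0.000984 by edgeR) and from 135 to 270 CPM in Huh7 (1.01, SE 0.042, adjusted p = 3.76e-09). GPC6, a glypican like GPC3, rose by 1.43 (SE 0.0927, adjusted p = 7.05e-05) in HepG2 and 0.35 (SE 0.048, adjusted p = 4.37e-05) in Huh7. SDC4, another syndecan, rose in HepG2 (0.58, adjusted p = 0.00342) and fell in Huh7 (-0.19, adjusted p = 0.0037). HSPG2, which encodes the basement membrane proteoglycan perlecan, had -0.16 in HepG2 (adjusted p = 0.387) and fell in Huh7 (-0.48, adjusted p = 2.30e-05).

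Of 13 genes of sulfate donor and sugar nucleotide supply, 3 were higher and 2 lower in HepG2, and 2 higher and 6 lower in Huh7. SLC35D1, a transporter of nucleotide sugars into the endoplasmic reticulum, rose by 1.28 (SE 0.121, adjusted p = 0.000192 by edgeR) in HepG2 and 1.06 (SE 0.046, adjusted p = 4.84e-09) in Huh7. UGDH, which makes UDP-glucuronic acid, rose by 0.57 (adjusted p = 0.00328) and 0.74 (adjusted p = 7.82e-08). UXS1, which turns UDP-glucuronic acid into UDP-xylose, fell in both (-0.68, adjusted p = 0.0018 and -0.17, adjusted p = 0.00841). SLC26A2, a sulfate transporter, had -0.46 in HepG2 (adjusted p = 0.058) and fell in Huh7 (-0.60, adjusted p = 6.37e-05).

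Of 10 genes of lysosomal heparan sulfate breakdown, 2 were higher and 4 lower in HepG2, and 3 higher and 6 lower in Huh7, with a median log2 fold change of -0.22 and -0.57. SUMF2, a relative of the sulfatase-modifying enzyme SUMF1, fell by 0.72 (adjusted p = 0.00321 by edgeR) in HepG2 and from a mean of 156 to 40.9 CPM in Huh7 (-1.93, SE 0.0466, adjusted p = 2.86e-10). GUSB, the lysosomal beta-glucuronidase, fell in both (-0.82, adjusted p = 0.000423 and -0.77, adjusted p = 6.74e-08), as did the sulfatase ARSG (-1.47, adjusted p = 0.000774 and -0.73, adjusted p = 0.00739).

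Chondroitin and dermatan sulfate are built on the same linker, and 5 of 13 of their enzymes were higher and 0 lower in HepG2, with 7 of 15 higher and 2 lower in Huh7. The median log2 fold change of this list was 0.60 in HepG2 but -0.11 in Huh7, and the genes named here are among those that rose. CHPF, a chondroitin polymerising factor, rose from a mean of 40.1 to 207 CPM in HepG2 (2.37, SE 0.232, adjusted p = 0.000216 by edgeR) and from 18.4 to 56.5 CPM in Huh7 (1.64, SE 0.195, adjusted p = 1.39e-05). The chondroitin 6-O-sulfotransferase CHST3 rose by 1.07 (SE 0.121, adjusted p = 0.000348) and 1.69 (SE 0.0581, adjusted p = 1.21e-09). CHST15, a chondroitin sulfotransferase, rose by 1.12 (adjusted p = 0.000166) and 0.88 (adjusted p = 0.000222), and the synthase CHSY3 rose in Huh7 (1.17, adjusted p = 6.16e-05). In HepG2 CHSY3 had 2.11 and did not pass the test. Its HepG2 controls (mean 0.703, SD 0.623 CPM) lay near the cut of the low-count filter, so no p is given there.

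Of the ligands, their receptors and the GPC3-processing genes, 8 of 15 were higher and 1 lower in HepG2, and 12 of 19 higher and 5 lower in Huh7. KLB, the co-receptor of FGF19 and FGF21, rose by 1.40 (SE 0.117, adjusted p = 0.000127 by edgeR) in HepG2 and 1.10 (SE 0.0472, adjusted p = 4.62e-09) in Huh7. The Wnt co-receptor LRP6 rose by 0.94 (adjusted p = 0.000177) and 0.79 (adjusted p = 8.42e-08). MET, the hepatocyte growth factor receptor, had 0.40 in HepG2 (adjusted p = 0.0621) and rose in Huh7 (0.53, adjusted p = 4.10e-07). WNT11, counted among the 8, went from a mean of 0.500 to 2.62 CPM in HepG2 (2.37) and was at 0.507 and 0.633 CPM in Huh7 (0.27, adjusted p = 0.552). Its HepG2 controls (SD 0.148 CPM) lay near the cut of the low-count filter. That can favour a higher value with UBL5 siRNA, so no HepG2 p is given for it.

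**Figure D5:**
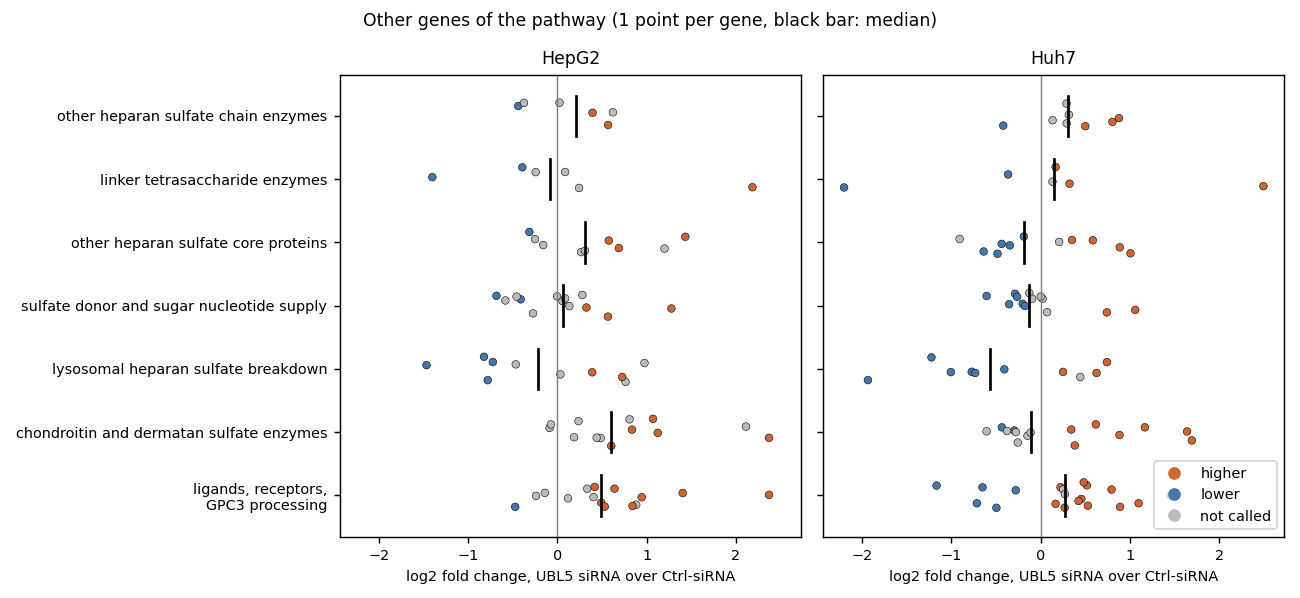
Log2 fold change of UBL5 siRNA over Ctrl-siRNA for each tested gene of the 7 lists in HepG2 (left) and Huh7 (right), with orange for genes that passed the test as higher, blue as lower and grey for the rest, and a black bar at the list's median. The lysosomal genes have medians of -0.22 and -0.57, and PXYLP1 and B3GAT3 (2.49 and -2.20 in Huh7) lie at the ends of the linker list.

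Likeness of pattern was measured over the 12 libraries as the root mean square difference of mean-centred log2 CPM, among 9152 protein-coding genes. The genes most like SULF2 were TGFB1 (0.378), TIMP3 (0.407) and SLC35F2 (0.413), against a median of 1.66 over all genes compared. Those most like HS6ST1 were ARHGEF3 (0.199), TSKU (0.231) and ALYREF (0.276), against a median of 0.998. For GPC3 they were INTS2 (0.0526), RSPRY1 (0.0939) and SRP54 (0.0969), against a median of 0.790. The 12 values share the line and siRNA groups, so that the measure follows the group means for the most part.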

How the data were processed

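Poly(A) RNA of HepG2 and Huh7 cells was sequenced in 12 libraries, 3 per line and siRNA. Per the labels, the authors used bcl2fastq, FastQC 0.11.9, STAR 2.7.6a on GRCh38 and featureCounts. The version, annotation and strand handling of featureCounts are not given in the sources used here. They deposited raw counts per gene for each line, beside log2 fold changes, p-values and scores of their own DESeq2 1.30.0 comparison, which were not used. All 12 count columns were matched to samples, and 0 were unmatched.

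Genes with low counts were removed by filterByExpr with a min.count of 10 and a min.total.count of 15, and the rest were TMM-scaled and tested in edgeR 4.0.16 (R 4.3.3, quasi-likelihood F test, 3 libraries against 3 within a line, adjusted p under 0.05 by Benjamini-Hochberg over all genes tested, no minimum fold). Lines were compared in a fit of all 12 libraries. CPM used TMM library sizes, and RPKM the union of GENCODE release 44 exons. Alternatives were DESeq2 1.42.0, its size factors in edgeR, no low-count filter, a fit of all 12 libraries, the replicate number as a block, and leaving out each library. The code was tested on simulated data. Python 3.11.15 with pandas 2.3.3 and scipy 1.17.1 made the summaries.

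Replicate numbers pair the HepG2 libraries by the data: deviations from the group means correlated at 0.410, 0.321 and 0.339 in same-numbered libraries, and at -0.341 to -0.0436 in the others. The main fits of both lines do not use the pairing, and the fits with the replicate number as a block are given at the end. The 10 genes and the lists were chosen with earlier results of these data known. Text names all 10 genes and, per list and line, the 3 genes with the smallest adjusted p and a group mean of at least 1 CPM, of which 1 gene is not reported here. For SULF2, HS6ST1 and GPC3 it names the 3 genes of most similar pattern with a mean of at least 10 CPM. Among the 10 genes and the named list genes, NDST2 alone shares over 20% of its exon bases with other genes. Promoter windows are from RefSeq (GRCh38.p14), and where a gene had several, the one nearest the start of the GENCODE canonical transcript was used.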

Additional observations from a re-analysis of the deposited data

Results flagged for a closer look

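For 8 of the named pathway genes the siRNA change differed between the lines in the fit of all 12 libraries (edgeR, Benjamini-Hochberg over 15668 genes, of which 21.5% passed), given here as the HepG2 log2 fold change minus the Huh7 one. The fall of SUMF2 was smaller in HepG2, by 1.24 (adjusted p = 9.09e-05), as was that of B3GAT3, by 0.83 (adjusted p = 0.0142). The rise of GPC6 was larger in HepG2, by 1.11 (adjusted p = 2.16e-05). SDC4 differed by 0.79 (adjusted p = 0.000604) and FAM20B by -0.53 (adjusted p = 0.00306), each with changes of opposite sign in the lines. WNT11, counted among the 8, differed by 2.10 at means of at most 2.62 CPM. No p is given for it, since its HepG2 controls lay near the cut of the low-count filter. The rise of CHST3 was larger in Huh7, with a difference of -0.59 (adjusted p = 0.0054), and the fall of UXS1 was larger in HepG2, with -0.48 (adjusted p = 0.0162).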

How the results depend on the processing

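No value that was followed through the alternative runs changed sign. Without the second HepG2 UBL5 siRNA library the number of genes that passed in HepG2 was 3819 instead of 5780, and in the fit of all 12 libraries 39 list genes passed in Huh7 instead of 61. The fit of all 12 libraries holds only genes listed for both lines, so that HPSE, for example, was not in it. Its common biological coefficient of variation was 0.124, against 0.0663 in the Huh7 fit. What part these have in the lower number, and the cause of the HepG2 change, was not tested. Leaving out each library in turn, 11445 to 12039 of all Huh7 genes and 3819 to 7270 of all HepG2 genes passed. Of the list genes 26 to 43 passed in HepG2 and 54 to 63 in Huh7. In Huh7 SULF2, HS6ST1, EXT1 and EXT2 passed in every alternative run, while HS6ST2 and HS2ST1 did not.

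With the replicate number as a block, 6431 genes passed in HepG2 and 12672 in Huh7, and 44 and 66 of the list genes. The 6 genes that passed in Huh7 without NDST2 passed again. The block moved the NDST2 HepG2 log2 fold change to 2.82 and ended none of the single-gene calls that were followed. In Huh7 same-numbered libraries correlated at 0.437, 0.061 and 0.565, and the others at -0.505 to 0.124. The second replicates were thus not closer than some other-numbered libraries, so the numbers are not taken to pair the Huh7 libraries. A block for the comparison of control lines was not run, because numbers nested in a line absorb the difference between lines. List genes were followed singly through the alternative runs only in a line where they ranked among the 3 named. The Huh7 calls of FAM20B, SDC4, UXS1, ARSG and CHST15 and the HepG2 call of SUMF2 were thus not followed. Of the calls followed, CHSY3 in Huh7 was lost in the fit of all 12 libraries (adjusted p = 0.112 by edgeR). Without the second UBL5 siRNA library EXTL2 (0.0704) and FAM20B (0.0644) were lost in HepG2. HS3ST3B1 was lost in HepG2 without the first (0.0533) or second (0.0576) control library, and HPSE in Huh7 without the first UBL5 siRNA library (0.0789). The log2 line difference of NDST2 lay between 1.08 and 3.07 over the alternative runs that held the gene, and a fit of the control libraries alone did not hold it. Counts as low as those of SULF1 in Huh7 and of NDST2 in the HepG2 controls leave folds undetermined at this depth. The Huh7 fold of NDST2 stays uncertain through its shared exons and the filter, as given above.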
